A study of Mus musculus with 42 samples.

Results

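The genes described here are 32 mouse genes of endoplasmic reticulum (ER) protein folding and the unfolded protein response, followed in kidney RNA over the day under 2 diets. They were chosen by name, as the listed rows of the deposited tables matched through Ensembl identifiers to gene symbols, and make up 32 of 56691 genes. Of them 30 reached a mean of 1 FPKM (fragments per length of exon and per depth of the library) over all samples and entered the tests with 13344 genes in all. Trib3 and Chac1 stayed below that floor and are given as levels. By role, 9 are chaperones and foldases, 6 are co-chaperones and secreted factors, 7 serve degradation or translocation, 5 are sensors and transcription factors, and 5 belong to the branch of ATF4 and CHOP. The first 3 groups, 22 genes, hold the chaperone and degradation genes attributed to ATF6 and XBP1, and are called the ATF6/XBP1 group below.

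The kidneys came from male, wild-type C57BL/6 mice that were 6 weeks old when the diets began and were kept in 12 h of light and 12 h of dark. EpSA mice ate a high-fat diet with 3% of the compound that the labels abbreviate as EpSA, and chow mice ate standard chow, both for 14 weeks. Each diet was sampled at zeitgeber times (ZT, hours of the light cycle) 1, 5, 9, 13, 17, 21 and 25, and the labels list 3 mice for each diet at each time, 42 in all. Each gene has 14 deposited expression values, the means of these trios, which are called pools below. Fat without EpSA was not analysed here, so the parts of EpSA and of fat cannot be told apart.

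Proteins that enter the secretory pathway fold in the ER, where chaperones of the HSP70 and HSP90 kinds, lectin chaperones and protein disulfide isomerases hold and oxidise them. When unfolded proteins accumulate, 3 membrane sensors respond: IRE1 splices the mRNA of XBP1, ATF6 is cut to release a transcription factor, and PERK phosphorylates eIF2alpha, which favours translation of ATF4. XBP1 and ATF6 raise chaperone and degradation genes through promoter elements called ERSE, whereas ATF4 raises amino acid and stress genes such as Asns and Ddit3. Splicing, cleavage and phosphorylation are not seen in FPKM per gene, so the values below give transcript levels of these genes and not the activity of the sensors.

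Between 27796 and 29783 genes were detected per pool, with FPKM sums of 400590 to 435621. Proximal tubule markers, a sum of 8 genes almost all of it Kap, were at 30720 to 41790 FPKM in EpSA pools and 35290 to 64390 FPKM in chow pools, highest in chow at ZT 21. A sum of 15 immune markers lay at 279 to 358 FPKM in EpSA pools and 269 to 1327 FPKM in chow pools, with 1188, 667, 618 and 1327 FPKM in chow at ZT 1, 5, 9 and 13. All 8 adrenal markers together reached 110.5 FPKM in EpSA at ZT 9 and between 1.34 and 1.91 FPKM in the other pools. Plasma cells make much ER chaperone RNA, and 7 plasma cell markers summed to 111 to 206 FPKM in EpSA pools and 134 to 239 FPKM in chow pools. In bulk kidney RNA, fewer cells of a type and less RNA per cell cannot be told apart.

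Since FPKM is scaled by gene length, levels can be set side by side between genes. The lectin chaperone Calr (calreticulin) had the highest mean over the 14 pools, 271 FPKM, followed by the disulfide isomerases P4hb at 237 and Pdia3 at 168. Next came the HSP70 chaperone Hspa5 (BiP) at 159, the HSP90 chaperone Hsp90b1 (GRP94) at 146 and the membrane lectin Canx (calnexin) at 117 FPKM. The order from Hspa5 to Hsp90b1 is within their spread between times, with SDs of 69.2 and 36.7 FPKM over the 7 EpSA pools. At the other end, the stress sensor Ern1 (IRE1) averaged 3.25, Asns (asparagine synthetase) 2.37, the pseudokinase Trib3 0.649 and the glutathione-cleaving enzyme Chac1 0.504 FPKM. The 6 most abundant members were all folding genes, and the 3 scarcest were all targets of ATF4.

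Among the 9 chaperones and foldases, the widest daily range belonged to Hspa5, the ER HSP70 that binds unfolded chains and the sensors themselves. At ZT 1, 5, 9, 13, 17, 21 and 25, in that order here and below, Hspa5 measured 105, 205, 86.9, 102, 233, 202 and 252 FPKM in EpSA kidneys, against 162, 174, 98.6, 102, 123, 231 and 154 FPKM in chow kidneys. Both diets were low at ZT 9 and 13, EpSA was also low at ZT 1, and the diets overlapped in range. Hspa5 lies on chromosome 2 at 34771970 to 34777547 in the GENCODE annotation of GRCm38, and its promoter is the textbook case of the ERSE. The 250 bases before its start site, from RefSeq on GRCm38.p6, hold 1 exact match to the ERSE, marked in capitals, 65 to 47 bases before the start.
Hspa5, chr2:34771840-34772089, + strand: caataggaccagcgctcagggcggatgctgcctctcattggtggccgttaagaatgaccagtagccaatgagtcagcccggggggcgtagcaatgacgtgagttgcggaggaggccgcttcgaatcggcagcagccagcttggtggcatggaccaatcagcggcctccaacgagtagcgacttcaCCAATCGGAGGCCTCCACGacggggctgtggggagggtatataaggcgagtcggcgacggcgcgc

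Hsp90b1, the ER HSP90, measured 132, 183, 111, 105, 178, 175 and 193 FPKM in EpSA kidneys, against 154, 151, 117, 105, 113, 189 and 141 FPKM in chow kidneys. Its course followed that of Hspa5 in a smaller range, with the highest over the lowest time at 1.83 in EpSA kidneys and 1.79 in chow kidneys, against 2.90 and 2.34 for Hspa5. Hyou1, a large HSP70 relative that exchanges nucleotide on BiP, measured 11.3, 21.7, 9.66, 11.5, 25.7, 20.3 and 27.7 FPKM in EpSA kidneys, against 17.9, 20.2, 11.8, 12.8, 15.6, 18.3 and 14.7 FPKM in chow kidneys. In EpSA kidneys Hyou1 was highest at ZT 25 and 17, whereas the highest chow pool was at 20.2 FPKM. Pdia4, a disulfide isomerase, measured 37.0, 55.6, 32.4, 34.1, 59.7, 49.2 and 64.0 FPKM in EpSA kidneys, against 45.8, 51.7, 37.4, 39.9, 40.3, 45.0 and 42.6 FPKM in chow kidneys. Pdia4 thus spanned 1.97 times its lowest level in EpSA kidneys and 1.38 times in chow kidneys. P4hb, the disulfide isomerase that also serves collagen prolyl hydroxylation, measured 238, 237, 217, 221, 242, 225 and 253 FPKM in EpSA kidneys, against 243, 236, 235, 244, 241, 239.8 and 247 FPKM in chow kidneys. It was the steadiest of the group, with a highest over lowest ratio of 1.16 in EpSA kidneys and 1.05 in chow kidneys. The ratio for Calr was 1.73 in EpSA and 1.42 in chow, for Canx 1.31 and 1.18, for Pdia3 1.36 and 1.34, and for Pdia6 1.59 and 1.49, in the same order of diets.

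Among the 6 co-chaperones and secreted factors, Sdf2l1, Creld2 and Manf had wide daily ranges, and Dnajb9, Dnajb11 and Dnajc3 narrower ones. Sdf2l1, a partner of ERdj3 and BiP, measured 5.80, 10.8, 4.22, 3.39, 14.2, 8.95 and 14.6 FPKM in EpSA kidneys, against 7.98, 10.3, 4.43, 4.52, 4.60, 10.4 and 6.63 FPKM in chow kidneys. It was highest at ZT 25 and 17 in EpSA kidneys and at ZT 21 and 5 in chow kidneys, and its highest EpSA pool stood at 4.31 times its lowest. Creld2, a secreted ER factor with disulfide isomerase activity, measured 20.4, 40.3, 15.4, 19.6, 52.4, 35.3 and 49.6 FPKM in EpSA kidneys, against 31.7, 30.6, 19.1, 19.96, 26.2, 46.3 and 29.3 FPKM in chow kidneys. Manf, a neurotrophic factor retained with BiP in the ER, measured 15.5, 29.0, 12.7, 15.3, 36.8, 23.6 and 33.0 FPKM in EpSA kidneys, against 21.7, 26.8, 13.8, 15.9, 19.2, 31.6 and 22.4 FPKM in chow kidneys. Creld2 and Manf shared the course of Hspa5: low at ZT 9 and 13 under both diets, high at ZT 17 and 25 with EpSA, and highest at ZT 21 with chow. Dnajb9 (ERdj4), a J-protein that represses IRE1, measured 19.5, 19.6, 15.4, 19.2, 29.0, 20.8 and 20.7 FPKM in EpSA kidneys, against 18.03, 20.5, 20.8, 20.5, 20.7, 21.7 and 14.97 FPKM in chow kidneys. Dnajb9 stood apart in chow kidneys, where it stayed between 18 and 21.7 FPKM up to ZT 21 and was lowest, at 15 FPKM, at ZT 25. Dnajb11 (ERdj3) ranged from 28.7 to 47.8 FPKM in EpSA kidneys and from 32.4 to 45.2 in chow kidneys. Dnajc3 (P58IPK), a J-protein that also inhibits PERK, ranged from 31 to 45.5 FPKM in EpSA kidneys and from 35.5 to 46.3 in chow kidneys.

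**Figure D1:**
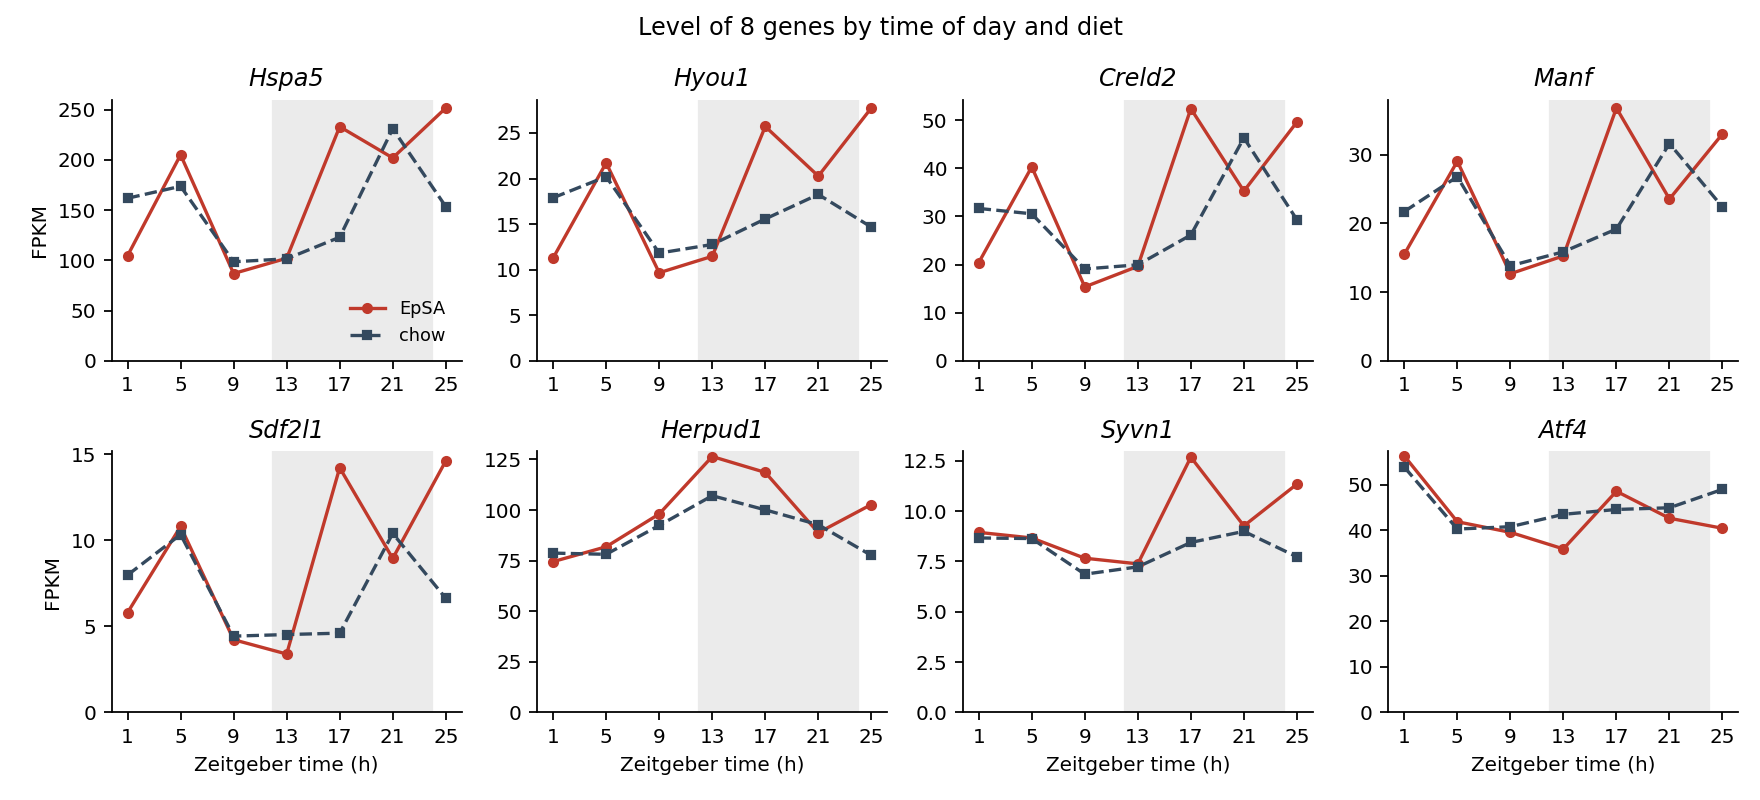
FPKM (y axis, from 0) of 8 genes against zeitgeber time in hours (x axis), with 1 point per pool, EpSA as solid red lines and chow as dashed dark lines. Grey marks the dark phase, from ZT 12 to 24. Hspa5, Hyou1, Creld2, Manf and Sdf2l1 were low at ZT 9 and 13 in both diets and higher in EpSA than in chow at ZT 17 and 25, whereas Herpud1 was highest at ZT 13 in both.

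Of the 7 genes for ER-associated degradation (ERAD) and translocation, Herpud1, a membrane protein that recruits the ubiquitin ligase, had a course of its own. Herpud1 measured 74.5, 81.9, 98.1, 126, 119, 88.8 and 103 FPKM in EpSA kidneys, against 78.7, 78.1, 92.4, 107, 100.1, 92.8 and 77.6 FPKM in chow kidneys. It was highest at ZT 13 in both diets, when the chaperones were near their lowest, and its lowest pools were at ZT 1 and 5 with EpSA and at ZT 25 and 5 with chow. In RefSeq on GRCm38.p6 its promoter holds an ERSE-II and, further from the start, a core of the element bound by ATF4 (CARE), both in capitals in the stretch shown. No other member with a promoter sequence held both.
Herpud1, chr8:94386297-94386407, + strand: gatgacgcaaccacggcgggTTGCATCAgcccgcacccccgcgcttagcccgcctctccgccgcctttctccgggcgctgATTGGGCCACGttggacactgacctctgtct

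Syvn1 (HRD1), the ERAD ubiquitin ligase, measured 8.94, 8.66, 7.66, 7.38, 12.7, 9.26 and 11.3 FPKM in EpSA kidneys, against 8.66, 8.63, 6.86, 7.23, 8.44, 8.99 and 7.73 FPKM in chow kidneys. Syvn1 was higher in EpSA than in chow in 7 of 7 times, though by under 0.05 on log2(FPKM + 1) at ZT 1, 5, 13 and 21. Derl1, a channel-forming rhomboid pseudoprotease of ERAD, measured 32.5, 33.6, 29.6, 28.8, 32.8, 30.1 and 32.2 FPKM in EpSA kidneys, against 36.7, 36.7, 33.9, 35.9, 32.7, 35.9 and 33.9 FPKM in chow kidneys. It was lower in EpSA than in chow in 6 of 7 times. Sec61b, the beta subunit of the translocon through which chains enter the ER, measured 26.8, 26.2, 23.7, 21.0, 24.2, 21.4 and 25.2 FPKM in EpSA kidneys, against 29.1, 29.2, 23.1, 26.1, 24.1, 46.0 and 29.6 FPKM in chow kidneys. The chow pool at ZT 21 was far above the other 6 chow pools, and without it the chow pools spanned 23.1 to 29.6 FPKM. Sel1l, the adaptor of HRD1, spanned 10.7 to 16.1 FPKM in EpSA kidneys and 11.9 to 14.5 in chow kidneys. The mannosidase-like Edem1 spanned 12.3 to 17.4 FPKM in EpSA kidneys and 15.6 to 19.2 in chow kidneys, and Derl2, a relative of Derl1, 6.80 to 8.46 and 7.40 to 9.11 in the same order.

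The 5 sensors and transcription factors differed among themselves in how far they moved over the day. Xbp1, the factor whose mRNA IRE1 splices, measured 34.5, 43.9, 41.5, 40.1, 54.1, 43.5 and 46.1 FPKM in EpSA kidneys, against 42.2, 50.6, 42.0, 48.4, 47.7, 39.8 and 43.7 FPKM in chow kidneys. Xbp1 was lowest at ZT 1 and highest at ZT 17 in EpSA kidneys, with a ratio of 1.57 between them, and spanned 1.27 times in chow kidneys. Atf6, the cleaved sensor, measured 5.72, 6.35, 5.41, 5.83, 6.46, 6.27 and 6.83 FPKM in EpSA kidneys, against 6.84, 7.02, 6.58, 6.58, 6.63, 5.82 and 5.72 FPKM in chow kidneys. Atf6 was lower in EpSA than in chow at ZT 1, 5, 9, 13 and 17 and higher at ZT 21 and 25, within a range of 5.41 to 7.02 FPKM. Atf4, the factor downstream of PERK, measured 56.3, 41.8, 39.5, 35.9, 48.5, 42.6 and 40.4 FPKM in EpSA kidneys, against 53.8, 40.2, 40.7, 43.5, 44.5, 44.9 and 48.9 FPKM in chow kidneys. Its highest pool was ZT 1 in both diets, at a time when the Hspa5 level in EpSA kidneys was low. Eif2ak3 (PERK) ranged from 5.05 to 7.22 FPKM in EpSA kidneys and from 4.83 to 6.32 in chow kidneys, and Ern1 from 3.04 to 3.67 and from 2.85 to 3.61 in the same order.

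In the branch of ATF4 and CHOP, 4 of 5 genes (Ddit3, Asns, Trib3 and Chac1) were highest at ZT 13 in chow kidneys, and 3 of 5 were lowest there at ZT 25. In EpSA kidneys 2 of 5 were highest at ZT 17 and 2 at ZT 9, and 3 were lowest at ZT 1, Asns equally so at ZT 13. Such counts were not made over all genes. Ddit3 (CHOP), a factor that promotes death under lasting stress, measured 10.1, 8.55, 9.08, 8.93, 13.0, 9.36 and 8.88 FPKM in EpSA kidneys, against 9.81, 8.17, 8.37, 9.91, 9.83, 8.87 and 7.88 FPKM in chow kidneys. Its EpSA pool at ZT 17 lay above all 13 others. Ppp1r15a (GADD34), the phosphatase subunit that restores translation, measured 3.65, 4.68, 5.21, 4.16, 4.84, 4.75 and 4.91 FPKM in EpSA kidneys, against 5.20, 5.23, 5.27, 4.62, 4.31, 4.83 and 4.12 FPKM in chow kidneys. Ppp1r15a was lowest with EpSA at ZT 1, where the 7 chow pools spanned 4.12 to 5.27 FPKM. Asns measured 1.89, 3.12, 2.10, 1.89, 2.80, 2.22 and 2.34 FPKM in EpSA kidneys, against 2.10, 2.91, 2.10, 3.49, 1.78, 2.11 and 2.31 FPKM in chow kidneys. Asns was highest with chow at ZT 13 and with EpSA at ZT 5. Trib3 ranged from 0.447 to 0.883 FPKM in EpSA kidneys and from 0.510 to 0.930 in chow kidneys, and Chac1 from 0.297 to 0.723 and from 0.293 to 0.883, so every pool of these sensitive ATF4 targets was below 1 FPKM. The promoters of Asns, Trib3 and Chac1 each held a CARE core, and that of Asns is shown with it in capitals, 23 to 16 bases before the start, on GRCm38.p6.
Asns, chr6:7693205-7693252, - strand: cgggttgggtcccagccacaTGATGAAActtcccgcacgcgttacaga

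**Figure D2:**
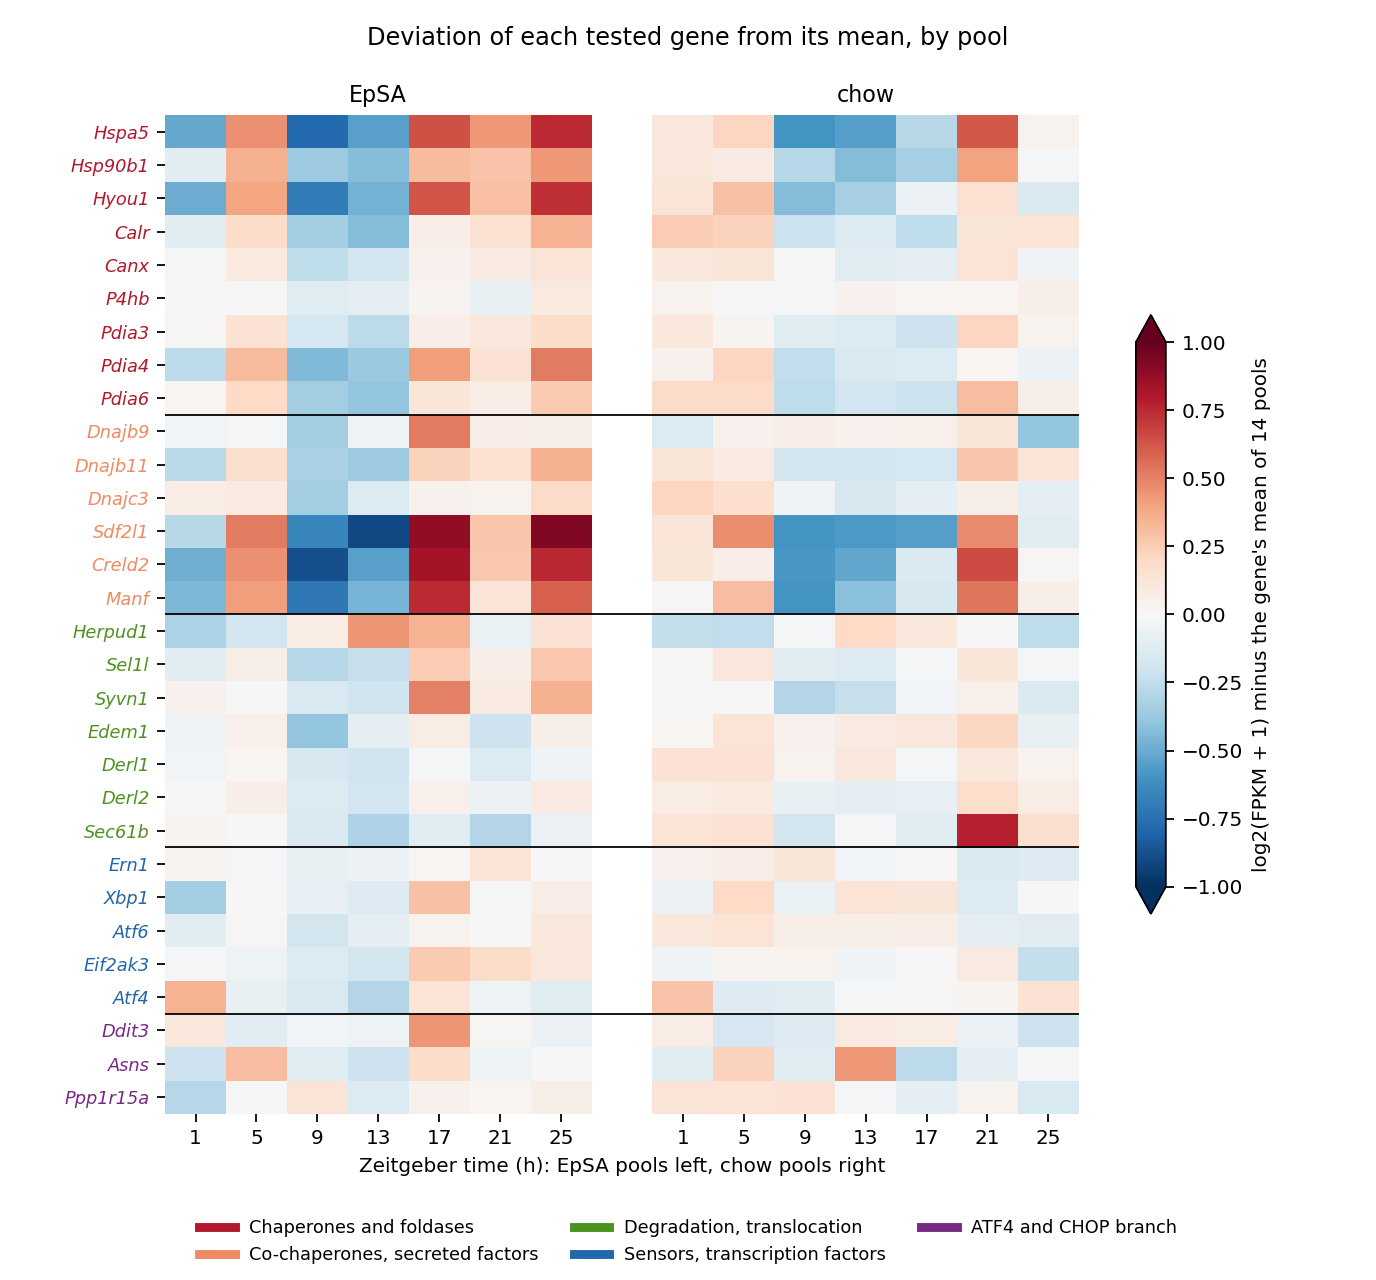
Deviation of each of the 30 tested genes (rows, grouped and coloured by role) from its own mean over 14 pools, on log2(FPKM + 1), by zeitgeber time in hours (columns), with EpSA pools left and chow pools right. Blue is below and red above the mean. Of the 22 genes in the first 3 groups, 20 were above it in EpSA at ZT 17 and at ZT 25, and 21 in chow at ZT 21. Of all 13344 genes tested, 6836, 6647 and 5100 were above their mean in these pools.

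Averaged over the day, no member passed the test of a difference between the diets, and as many lay above 0 as below it. A limma model of log2(FPKM + 1) with a term for each time, adjusted by Benjamini-Hochberg over all 13344 genes at 0.05, called 0 of 30 members higher and 0 lower in EpSA. Over all genes it called 0.00749% higher and 0.015% lower, 3 genes in all. Without adjustment, at a p under 0.05, 1 member was higher (3.33%, beside 8.76% of all genes) and 1 was lower (3.33%, beside 10.3%), both shares below the background. These 2 were Syvn1, with a difference of 0.18 ± 0.08 (SE) (unadjusted p = 0.043, limma adjusted p = 0.25), and Derl1, with -0.16 ± 0.05 (SE) (unadjusted p = 0.0078, limma adjusted p = 0.14). Over the 30 members, 15 differences were above 0 and 15 below, with a median of -0.0042 beside -0.010 over all genes. The ATF6/XBP1 group had a median of 0.015, the sensors and factors of -0.055 and the 3 tested genes of the ATF4 and CHOP branch of -0.021. The median of the ATF6/XBP1 group was not stable in sign, at -0.039 without ZT 17 and -0.026 without ZT 25. With quantile normalization it kept its sign, at 0.086. That of the ATF4 and CHOP branch turned sign, to 0.009 without ZT 1 and 0.081 without ZT 13. With a mean of at least 5 FPKM, which of these genes only Ddit3 reached, it was 0.094.

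By role, the means over the 7 times stand beside the spread over the day. Hspa5 averaged 169 ± 69.2 FPKM in EpSA kidneys and 149 ± 46.6 FPKM in chow kidneys (SD over 7 times), a difference of 0.12 ± 0.17 (SE). Without ZT 17 the fitted difference of Hspa5 was -0.007. Sdf2l1 averaged 8.86 ± 4.59 FPKM in EpSA kidneys and 6.99 ± 2.65 FPKM in chow kidneys, with the largest fitted excess of the members, 0.22 ± 0.22 (SE) (limma adjusted p = 0.62). Without ZT 17 the Sdf2l1 difference was 0.018, and without ZT 25 it was 0.086. Sec61b averaged 24.1 ± 2.24 FPKM in EpSA kidneys and 29.6 ± 7.67 FPKM in chow kidneys, with the largest fitted deficit, -0.26 ± 0.12 (SE) (limma adjusted p = 0.28). Without ZT 21, where the chow pool stood apart, the Sec61b fit gave -0.12 (limma adjusted p = 0.30). The SEs and p-values here measure how the difference between the diets varied from time to time. The SDs give the spread of levels over the day, which the term for each time takes out of that error. Mice of one pool were deposited as a mean, so their spread does not enter.

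At single times the diets were far apart for the folding genes, and in both directions. With 1 value per diet and time there is no test, so differences of at least 0.5 on log2(FPKM + 1) are counted beside the share of all genes that reached it. At ZT 17, in the dark phase, 8 members were at least 0.5 higher in EpSA (26.7%, beside 2.78% of all genes) and 0 lower (beside 1.12%). These were Hspa5, Hsp90b1, Hyou1, Pdia4, Sdf2l1, Creld2, Manf and Syvn1. Sdf2l1 was at 14.2 FPKM in EpSA and 4.60 in chow at ZT 17, a ratio of 3.09. The ratio was 2.00 for Creld2, 1.92 for Manf and 1.89 for Hspa5. Of the 22 genes in the ATF6/XBP1 group, 21 were above 0, with a median of 0.33 beside 0.03 over all genes. Pools with equal medians gave 18 above 0, and quantile normalization also 18, with medians of 0.29 and 0.39.

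At ZT 25, an hour into the next light phase, 6 members were at least 0.5 higher in EpSA (6 of 30, beside 2.0% of all genes) and 0 lower (beside 1.4%). They were Hspa5, Hyou1, Pdia4, Sdf2l1, Creld2 and Manf, all among the 8 of ZT 17. Hspa5 was at 252 FPKM in EpSA and 154 in chow, and Hyou1 at 27.7 and 14.7 FPKM, a ratio of 1.89. In the ATF6/XBP1 group, 20 of 22 differences were above 0, with a median of 0.28 beside 0.0096 over all genes. The direction of the group at ZT 25 was the same with pools at equal medians (0.26) and with quantile normalization (0.32).

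At ZT 1, the same hour of the light cycle as ZT 25, the folding genes were lower in EpSA. Hspa5, Hyou1 and Creld2 were at least 0.5 lower (3 of 30, beside 3.81% of all genes), and 0 members were higher (beside 1.81%). Hspa5 was at 105 FPKM in EpSA and 162 in chow, Hyou1 at 11.3 and 17.9, and Creld2 at 20.4 and 31.7. Of the ATF6/XBP1 group, 20 of 22 differences were below 0, with a median of -0.16 beside -0.027 over all genes, and the other scalings gave medians of -0.11 and -0.12. The immune marker sum at this time was 281 FPKM in EpSA and 1188 in chow. All 6 loop and distal tubule markers were also lower in EpSA at ZT 1, with a median of -0.52 and a sum of 919.9 FPKM in EpSA and 1519 in chow. The part of either list in these differences was not tested.

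The other 4 times showed few large differences. At ZT 5, 0 members were at least 0.5 higher (beside 1.63% of all genes) and 0 lower (beside 1.35%). At ZT 9, when the adrenal marker sum was high in the EpSA pool, 0 members were higher (beside 1.78%) and 0 lower (beside 1.49%). At ZT 13, Asns was lower in EpSA, at 1.89 against 3.49 FPKM in chow (1 member, 3.33%, beside 3.38% of all genes), and 0 members were higher (beside 1.93%). At ZT 21, Sec61b was lower in EpSA, at 21.4 against 46.0 FPKM in chow (1 member, 3.33%, beside 6.41%; 3 members with pools at equal medians), and 0 members were higher (beside 6.48%). As deposited, the counts at ZT 13 and 21 were thus near or below their background. The count of 3 with pools at equal medians has no share of all genes beside it, so it is not read against one. The median of the ATF6/XBP1 group at ZT 21 was -0.11, but it was 0.041 after quantile normalization, so its direction there depends on the scaling.

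**Figure D3:**
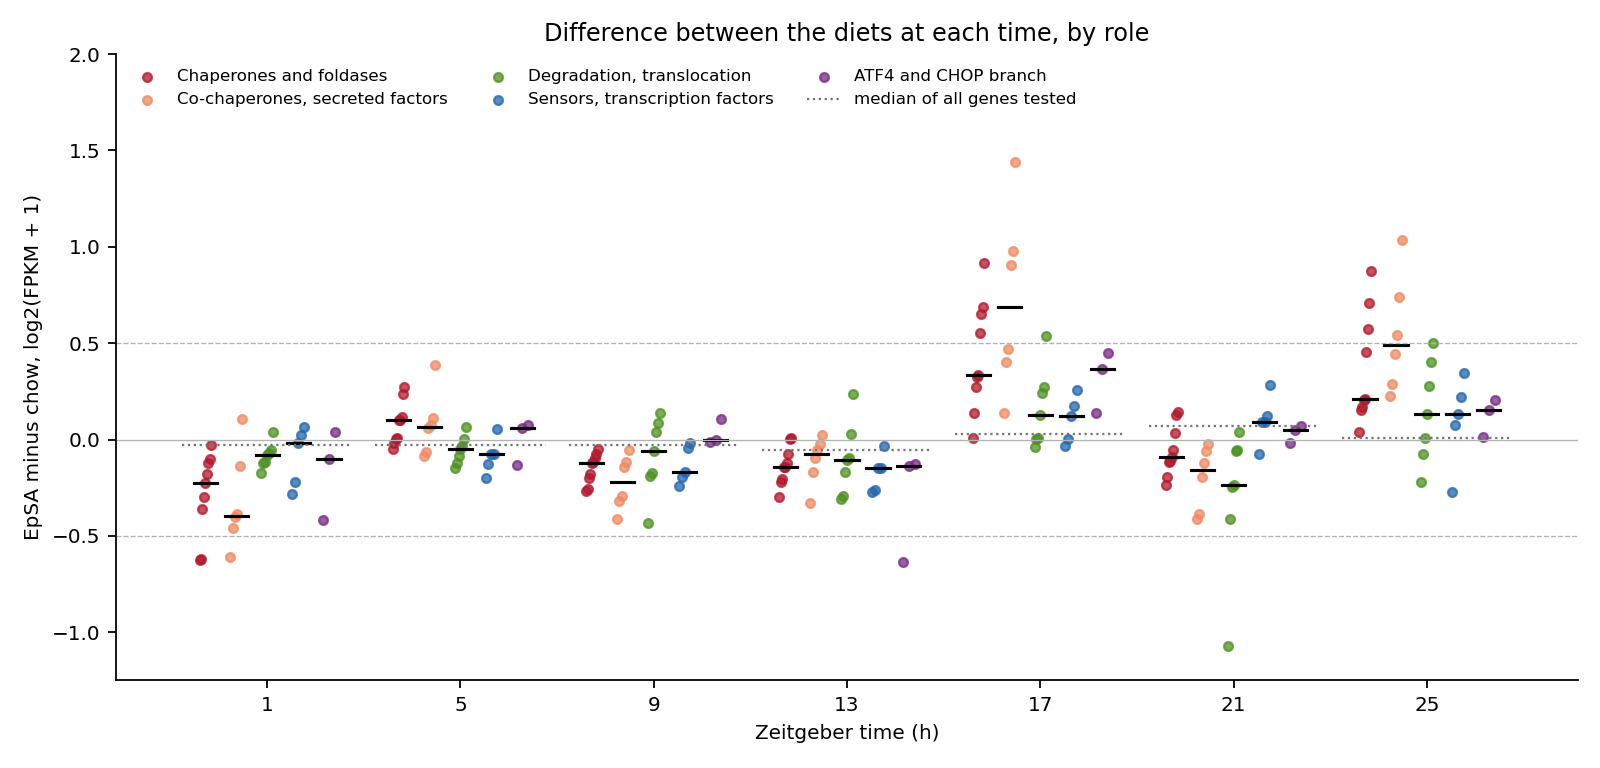
Difference between the diets, EpSA minus chow on log2(FPKM + 1) (y axis), for each of the 30 tested genes (points, coloured by role) at each zeitgeber time in hours (x axis). Short black lines are group medians, dotted lines the median of all 13344 genes, and dashed lines the threshold of 0.5; the points of the first 2 groups lie highest at ZT 17 and 25, with medians of 0.33 and 0.69 at ZT 17.

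ZT 25 and ZT 1 are the same hour a day apart. In EpSA kidneys several folding genes sat at higher levels in the later pool, and in chow kidneys no member moved that far. In EpSA kidneys 8 members were at least 0.5 higher at ZT 25 than at ZT 1 (26.7%, beside 2.65% of all genes) and 0 lower (beside 1.87%). They were Hspa5, Hsp90b1, Hyou1, Pdia4, Dnajb11, Sdf2l1, Creld2 and Manf. In chow kidneys 0 members were higher (beside 1.69%) and 0 lower (beside 2.71%). The ratio of ZT 25 to ZT 1 for Sdf2l1 was 2.52 in EpSA kidneys and 0.831 in chow kidneys. For Hyou1 it was 2.46 in EpSA kidneys and 0.820 in chow kidneys, and for Hspa5 2.41 and 0.949 in the same order. The median of the ATF6/XBP1 group was 0.34 in EpSA, with 20 of 22 genes above 0, beside -0.0048 and 48.9% over all genes. In chow it was -0.10, with 4 above 0, beside -0.043 and 39.1% over all genes. With pools at equal medians the group's median was 0.34 in EpSA and -0.033 in chow, where 7 were above 0. Quantile normalization gave 0.36 in EpSA and -0.066 in chow, where 5 were above 0. The 6 loop and distal tubule markers moved in the same directions: 5 were above 0 in EpSA (median 0.30) and 0 in chow (median -0.39), and their part in the step was not tested. Whether the step in EpSA exceeds the spread between mice could not be tested, with 1 deposited mean per diet and time.

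The daily course of the members was then fitted with a 24 h cosine shared by the diets, with a term for diet. Of 30 members, only Herpud1 passed at a Benjamini-Hochberg adjusted p of 0.05 (1 member, 3.33%, beside 1.39% of all genes). Its amplitude was 0.26 ± 0.04 (SE) on log2(FPKM + 1) and its fitted peak at 14.6 ± 0.7 h, with a limma adjusted p of 0.027. The adjusted p of Herpud1 rose above 0.05 when ZT 1, 5, 9, 13 or 17 was left out, to between 0.075 and 0.23, and with no filter on low genes, to 0.079. At an unadjusted p under 0.05, 14 members passed (46.7%, beside 16.1% of all genes): Hspa5, Hsp90b1, Calr, Canx, Pdia3, Pdia6, Dnajb11, Dnajc3, Sdf2l1, Creld2, Herpud1, Syvn1, Derl2 and Ddit3. Their fitted peaks, except for Herpud1 and Ddit3, lay between 21.2 h and 0.5 h, around the end of the dark phase.

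The largest shared amplitudes among the members were those of Creld2, Sdf2l1 and Hspa5. Creld2 had 0.50 ± 0.16 (SE) with a peak at 21.8 ± 1.2 h, Sdf2l1 0.49 ± 0.17 at 23.4 ± 1.4 h and Hspa5 0.48 ± 0.15 at 22.4 ± 1.2 h, with limma adjusted p of 0.24, 0.28 and 0.22, all short of the threshold. Manf had 0.39 ± 0.15 and Hyou1 0.32 ± 0.14, with unadjusted p of 0.061 and 0.11. Ddit3 had an earlier fitted peak, at 17.4 ± 1.3 h, with an amplitude of 0.14 ± 0.05. Among the regulators, Xbp1 had 0.07 ± 0.06, Atf6 0.008 ± 0.039 and Ern1 0.011 ± 0.039, amplitudes below or near their errors. Atf4 had 0.15 ± 0.05, with a peak at 22.6 ± 1.5 h and an unadjusted p of 0.054.

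**Figure D4:**
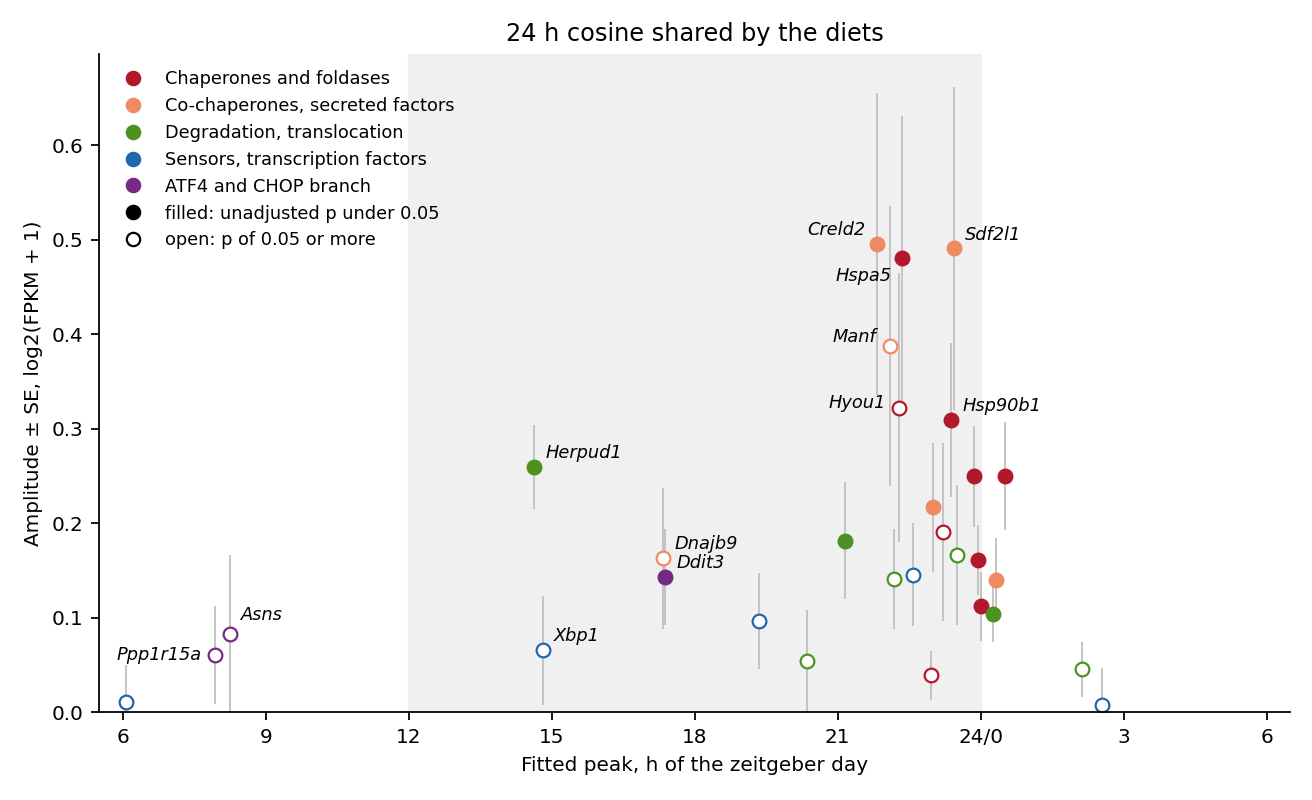
Fitted amplitude on log2(FPKM + 1) with its SE (y axis) against the fitted peak in hours of the zeitgeber day (x axis, from 6 h round to 6 h) for the 30 tested genes, coloured by role, in a 24 h cosine shared by the diets. Filled points had an unadjusted p under 0.05 and grey marks the dark phase. Chaperones and co-chaperones gather near 22 h to 0.5 h, except Dnajb9 at 17.3 h. Herpud1 stands at 14.6 h with an amplitude of 0.26.

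Within one diet the 7 pools gave few calls. In EpSA kidneys 0 of 30 members passed with adjustment (beside 0.0525% of all genes), and without it 4 passed (13.3%, beside 8.52%): Pdia6, Dnajc3, Herpud1 and Eif2ak3. In chow kidneys 0 passed with adjustment (beside 0.0674%), and without it 9 passed (30.0%, beside 10.4%): Hspa5, Hsp90b1, Calr, Pdia6, Dnajb11, Sdf2l1, Creld2, Manf and Herpud1. The difference of rhythm between the diets, tested itself as an interaction, called 0 members with adjustment (beside 0.0% of all genes) and 1, Ern1, without it (3.33%, beside 4.63%). The fitted amplitude of Hspa5 was 0.51 ± 0.26 (SE) in EpSA and 0.47 ± 0.12 in chow, and the SE was the larger one in EpSA. For Creld2 it was 0.53 ± 0.29 in EpSA and 0.47 ± 0.11 in chow. The highest level exceeded the lowest by at least 1.5 times for 18 of 30 members in EpSA (60.0%, beside 26.0% of all genes) and for 8 in chow (26.7%, beside 28.7%). The difference between these 2 counts was not tested.

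In the authors' deposited table, the meta2d p for a daily rhythm was under 0.05 for 1 tested member in EpSA (Ern1, 3.33%, beside 9.82% of all genes). For chow the authors' deposited table gave 7 (23.3%, beside 11.8%), namely Hsp90b1, Calr, Pdia6, Dnajb11, Herpud1, Derl2 and Ddit3. The authors' deposited table gave Herpud1 a p of 0.0037 in chow, with a phase of 14.96 h, and of 0.052 in EpSA, with a phase of 14.2 h. No member had a deposited q-value under 0.05: the authors' deposited table gave Herpud1 a q of 0.38 in chow and 1.0 in EpSA.

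The times of the extremes were also counted, without a curve and without the same count over all genes. In EpSA kidneys 14 of the 22 ATF6/XBP1 genes were highest at ZT 25 and 5 at ZT 17, and 21 were lowest at ZT 9 or 13. In chow kidneys 15 of 22 were highest at ZT 21, and 16 were lowest at ZT 9 or 13. Relative to each gene's own mean over 14 pools, the median of the group in EpSA was -0.071, 0.12, -0.34, -0.29, 0.24, 0.085 and 0.26 from ZT 1 to 25. In chow it was 0.11, 0.13, -0.18, -0.15, -0.11, 0.17 and 0.0012. Over all genes tested the median lay between -0.057 and 0.016 in EpSA pools and between -0.057 and 0.049 in chow pools. The group's trough at ZT 9 and 13 was thus common to the diets, and its medians in the diets lay furthest apart at ZT 17 and 25. The direction of its diet difference at ZT 21 depends on the scaling, as given above.

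Promoter sequences were searched for the elements of the response, to describe what the members share in sequence. RefSeq promoters on GRCm38.p6, 250 bases before to 50 after the start, were held for 28 members, and not for Atf6, Derl1, Manf and Hyou1. The ERSE, searched on both strands as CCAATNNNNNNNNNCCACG, was found in 8 of 28 members (28.6%), against 37 of 27025 genes (0.137%). The 8 were Hspa5, Hsp90b1, Calr, Canx, Pdia6, Dnajc3, Creld2 and Syvn1, several of which are textbook ERSE genes. The ERSE-II, ATTGGNCCACG on both strands, was found in Dnajb11 and Herpud1 (7.14%, against 0.0444% of genes). The CARE core TGATGNAA was found in Herpud1, Trib3, Asns and Chac1 (14.3%, against 4.51%), the cAMP element TGACGTCA in Ppp1r15a (3.57%, against 2.03%) and the UPRE core TGACGTGG in 0 members (against 0.714%). The E-box CACGTG, which clock activators among others bind, was found in Calr and Dnajb9 (7.14%, against 8.09%). A match is a description of letters and not a shown binding site.

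Beside Hspa5, shown above, 3 genes with an ERSE were among the 8 at least 0.5 higher in EpSA at ZT 17. Sdf2l1 and Pdia4, also among the 8, had no ERSE, and Hyou1 and Manf had no promoter to search. The elements of the 3 genes are shown with 20 bases on each side, in the gene's own direction. Capitals mark the ERSE, and in Creld2 it lies on the opposite strand, so that the capitals read as its reverse complement.
Hsp90b1, chr10:86705618-86705676, - strand: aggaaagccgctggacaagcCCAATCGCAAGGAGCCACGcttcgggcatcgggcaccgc
Creld2, chr15:88819500-88819558, + strand: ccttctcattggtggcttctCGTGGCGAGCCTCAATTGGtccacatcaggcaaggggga
Syvn1, chr19:6046512-6046570, + strand: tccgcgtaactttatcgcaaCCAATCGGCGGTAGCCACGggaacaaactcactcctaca

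These elements begin 212, 126 and 44 bases before the start in Hsp90b1, Creld2 and Syvn1, and Hsp90b1 holds another match at 107 bases. All 8 members with an ERSE had an unadjusted p under 0.05 in the shared cosine, with a median amplitude of 0.25 on log2(FPKM + 1). Of 18 tested members with a promoter but no ERSE, 6 did, with a median amplitude of 0.142. These 18 include Dnajb11 and Herpud1, which held an ERSE-II. Among 8 other tested genes with an ERSE, 1 did, with a median amplitude of 0.093, beside 16.1% and 0.068 over all genes. The median difference at ZT 17 was 0.43 for members with an ERSE, 0.25 for members without, 0.011 for other genes with an ERSE and 0.028 for all genes. These groups were not compared by a test. The members are known targets, so their elements are no independent choice.

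Related genes outside the members were counted from lists. Of 30 tested further genes of ER folding and translocation, 0 were called in the diet difference or the shared rhythm. The lowest diet p were those of the signal peptidase subunit Spcs3, at -0.15 ± 0.05 (SE), and of the BiP nucleotide exchange factor Sil1, at -0.13 ± 0.05 (SE) (limma adjusted p = 0.16 and 0.20). The next list mixed further ERAD genes with stress factors, proteases and genes of stress signalling and cell death. Of its 29 tested genes, 1 was called in the shared rhythm (amplitude 0.24 ± 0.04 SE, limma adjusted p = 0.019). This was the stress factor Creb3l1, not an ERAD gene itself, at 0.877 to 1.95 FPKM in EpSA kidneys and 1.33 to 2.39 in chow kidneys. Of 31 tested genes of the ATF4 programme, 0 were called, with the lowest diet p for the amino acid transporter subunit Slc3a2 at 0.19 ± 0.07 (SE) and the stress factor Nupr1 at -0.31 ± 0.12 (SE) (limma adjusted p = 0.18 and 0.23). At ZT 17, where the ATF6/XBP1 group had a median of 0.33, the median was 0.055 for further folding genes. It was -0.0036 for the mixed list of ERAD and stress genes and 0.15 for the ATF4 programme.

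Heat shock genes, most of them for cytosolic chaperones that handle unfolded proteins outside the ER, were counted as well. The list also holds mitochondrial chaperonins and a heat shock transcription factor. Of 22 genes, 0 were called in the diet difference, and Fkbp4 and Hsp90aa1 were called in the shared rhythm (2 of 22, beside 1.39% of all genes). At an unadjusted p under 0.05, 9 of 22 passed in the shared rhythm, beside 14 of 30 members and 16.1% of all genes. Of the lists above, 5 of 30 further folding genes, 4 of 29 ERAD and stress genes and 0 of 31 genes of the ATF4 programme passed so. Fkbp4, an HSP90 co-chaperone, peaked at 0.14 ± 0.76 h with an amplitude of 0.18 ± 0.03 (SE), and Hsp90aa1, the inducible cytosolic HSP90, at 23.95 ± 0.82 h with 0.34 ± 0.06 (limma adjusted p = 0.034 and 0.046). At ZT 17 all 22 were above 0 in EpSA against chow, with a median of 0.34, close to the 0.33 of the ATF6/XBP1 group. At ZT 1 the heat shock median was 0.20 and that of the ATF6/XBP1 group -0.16. For ZT 25 minus ZT 1 in EpSA kidneys, the heat shock median was -0.032 and that of the ATF6/XBP1 group 0.34. No test compared the lists.

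Markers of other cells at the times that differed most are given for comparison. At ZT 17, when 8 members were at least 0.5 higher in EpSA, 12 of 12 tested immune markers were above 0 (median 0.24), with a sum of 317 FPKM in EpSA and 269 in chow. Fat markers were above 0 in 7 of 8 (median 0.85), with a sum of 205 FPKM in EpSA and 116 in chow, and podocyte markers in 6 of 6 (median 0.27), with 70.9 and 57.3 FPKM in the same order. Plasma cell markers summed to 149 FPKM in EpSA and 150.0 in chow at ZT 17, with 4 of 6 above 0 (median 0.15). Collecting duct markers summed to 279.8 FPKM in EpSA and 190.8 in chow, with 3 of 5 tested above 0 (median 0.12). Loop and distal tubule markers summed to 1107 and 1170 FPKM in the same order, with 2 of 6 above 0 (median -0.038). The part of these lists in the differences at ZT 17 was not tested.

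At ZT 25, podocyte markers were again above 0 in 6 of 6 (median 0.28), with a sum of 71.6 FPKM in EpSA and 58.8 in chow, whereas fat markers were below 0 in 8 of 8 (median -0.53). The plasma cell sum was 206 FPKM in EpSA and 239 in chow, and the immune sum 294 and 324 FPKM, both lower in EpSA while Hspa5 was higher. Of 8 proximal tubule markers, 7 were below 0 at ZT 17 (median -0.092) and 7 above 0 at ZT 25 (median 0.12). Their sum, almost all Kap, was 34140 FPKM in EpSA and 39720 in chow at ZT 17, and 35740 and 49370 FPKM at ZT 25, so at ZT 25 it ran against the other 7 markers. In EpSA kidneys the plasma cell sum was 206 FPKM at ZT 25 and 141 at ZT 1, and 239 and 178 FPKM in chow kidneys, and its part in the difference between these pools was not tested.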

How the data were processed

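Total RNA of 42 kidneys was read in pairs of 150 bases, per the labels' protocols. Aligner, counting, build and normalization: not given in the sources used here. There are 2 deposited tables of 56691 genes, with 7 expression columns each. Their values are taken as FPKM deposited by the authors, since smallest values shrink as exon length grows, though the headers state no unit. Every value ends in 0, 3 or 7 thousandths, as means of 3 rounded values do, so depth and the spread between mice are unknown. Deposited p-values, q-values, phases and a ratio of amplitude to baseline come from meta2d, per the file headers.

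From these, log2(FPKM + 1), with a pseudocount of 1, was tested for 13344 genes of mean at least 1 FPKM with limma 3.58.1 in R 4.3.3 (no variance trend) and Benjamini-Hochberg adjustment at 0.05, each pool as 1 sample. On this scale the change of low genes is understated. Diet was fitted beside a factor for time (6 residual degrees of freedom), the shared 24 h cosine a diet term (10), each diet's cosine 4 and the interaction 8. The error is the spread between pools that is left after these terms, not the spread between mice. The fits were tested on simulated data. Symbols matched 52073 identifiers. One of the 2 identifiers of Ddit3 was at 0 in all pools and was not used. Without stated strand or multi-read handling, reads of overlapping genes or close copies cannot be told apart. All 32 members are named; from the other lists the genes called, or otherwise the 2 of lowest diet p. Members and lists were chosen with earlier results of these data known. Motifs were matched as exact letters in RefSeq promoters (GRCm38.p6). Alternatives covered the pseudocount, filter, scaling, variance trend, shape and times left out. Python 3.11.15 with pandas 2.3.3 served otherwise.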

Additional observations from a re-analysis of the deposited data

Results flagged for a closer look

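In 60 groups of 7 pools, 1 per tested member and diet, extremes were checked on log2(FPKM + 1). The distance of the highest or lowest pool to its nearest neighbour was set against the whole range of the group. The shares below are on that scale and do not follow from the FPKM printed beside them. For 3 genes this share was above Dixon's 95% critical value for 7 values, which chance alone passes in about 1 in 20 groups. Flags in 3 of 60 groups are no more than that rate gives. Ddit3 (CHOP) in EpSA kidneys was highest at ZT 17, at 13.0 FPKM against 8.55 to 10.1 FPKM in the other EpSA pools, a share of 0.60. Sec61b, the translocon subunit, was highest in chow kidneys at ZT 21, at 46.0 FPKM against 23.1 to 29.6 FPKM in the other chow pools, a share of 0.64. Eif2ak3 (PERK) was lowest in chow kidneys at ZT 25, at 4.83 FPKM against 5.66 to 6.32 FPKM in the other chow pools, a share of 0.59. In that chow pool at ZT 21, the proximal tubule gene Kap was also at its highest of the 14 pools, at 62960 FPKM. In the same pool the proximal tubule transporters Slc5a2 (51.0 FPKM), Slc5a12 (16.4), Slc22a6 (207) and Slc22a8 (90.3) were at their lowest. The transporter Slc34a1 (923 FPKM) and the receptors Lrp2 (120) and Cubn (19.1) were not. The part of any of these proximal tubule genes in the Sec61b value was not tested.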

How the results depend on the processing

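No paired analysis was possible because the deposited columns are means over the mice of a diet and time, so the sample numbers of the labels have no values of their own. Counts of members called in the diet difference, in the rhythm within a diet and in the difference of rhythm stayed at 0 with pseudocounts of 0.1 and 0.5, no filter, a mean of at least 5 FPKM, both other scalings, a variance trend (added after the data were seen) and each time left out. The count of 1 for the shared rhythm, Herpud1, fell to 0 with no filter, with time of day as a factor of any shape, and without ZT 1, 5, 9, 13 or 17, and was 1 without ZT 21 or 25. The amplitude of Herpud1 then lay between 0.23 and 0.27. At ZT 21 the members at least 0.5 lower in EpSA numbered 1 as deposited and 3 with pools at equal medians. This alternative was added after the data were seen, and its share over all genes is not given. Of the member results, diet differences and amplitudes under each setting, 791 kept their direction and their side of the threshold and 6, all of Herpud1, lost the call. In the other 37, all diet differences that were called neither as reported nor under the alternative, the fitted sign turned. With quantile normalization EpSA minus chow on log2(FPKM + 1) became 0.081 for Calr, 0.051 for Canx, 0.041 for P4hb, 0.053 for Pdia6, 0.045 for Dnajb11, 0.042 for Dnajc3, -0.004 for Ern1, 0.006 for Xbp1 and 0.007 for Atf4. Without ZT 1, it became 0.016 for Calr, 0.002 for Pdia6, 0.045 for Dnajb11, 0.004 for Dnajc3 and 0.009 for Ppp1r15a. Without ZT 9, it became 0.005 for Canx, 0.004 for Dnajb11 and 0.033 for Dnajc3. Without ZT 13, it became 0.005 for Calr, 0.006 for Pdia6, 0.008 for Dnajb11 and 0.081 for Asns. Without ZT 17, it became -0.007 for Hspa5, -0.020 for Pdia3, -0.013 for Dnajb9, -0.031 for Creld2, -0.065 for Manf and -0.036 for Sel1l. Without ZT 21, it became 0.011 for Pdia6, 0.000 for Dnajb11 and -0.030 for Ern1. Without ZT 25, it became -0.016 for Hyou1, 0.000 for Pdia3, -0.009 for Dnajb9, -0.004 for Manf, -0.036 for Sel1l, -0.006 for Ern1 and -0.004 for Eif2ak3. The medians of the ATF6/XBP1 group and of the ATF4 and CHOP branch also turned sign, as given beside them. The cause of these changes was not tested. Depth is unknown, so counting error could not be given.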
